A study of Mus musculus with 2 samples.

Results

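The liver cells of the embryo make proteins that carry lipids, hormones and vitamins in plasma. The transcripts of 10 such genes, Alb, Afp, Ttr, Ahsg, Rbp4, Apoa1, Apoa2, Apob, Apoe and Apom, were followed through the cell types of the mouse fetal liver by single cell RNA sequencing (scRNA-seq). The genes were taken by their symbols, and all 10 were found once each among the 27998 genes of the count tables. The cells came from 1 liver of a C57BL/6 embryo (C57BL/6J in the methods) at E12.5, a stage given in days of gestation, named wild type in the sample titles. According to the methods, the dissociated cells were sorted to remove debris, dead cells and doublets, and the suspension was run as 2 technical replicate libraries, whereas the series description speaks of 2 suspensions. The libraries are therefore not separate animals, no test between samples was possible and no p-value is given.

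In each droplet, RNA molecules are counted by unique molecular identifiers (UMIs). The authors' table names 9 cell types: hepatoblasts (Hepa), monocytes and Kupffer cells (Mo/KC), endothelial cells (EC), hematopoietic stem and progenitor cells (spelled HPSC), granulocytes (G), megakaryocytes (Mk), erythroid-committed progenitors (Ery), erythroblasts (Eryb) and primitive erythroblasts (EryP). Hepa held 33 cells with 640236 UMIs in library 1 and 31 cells with 809959 UMIs in library 2. Mo/KC held 56 cells with 678685 UMIs and 58 cells with 885398 UMIs. The 7 hepatoblast markers summed to 8014 and 5213 CPM (counts per 1000000 UMIs of a cell type) in Hepa, and the 13 monocyte and macrophage markers summed to 17.2 and 12.3 CPM there, with 10 of the 13 at 0 UMIs. In Mo/KC the 13 summed to 13961 and 10603 CPM, most of it Lyz2 (10031 and 8083 CPM), which G also held (9799 and 6428 CPM), while C1qa, C1qb, C1qc, Csf1r, Fcgr1, Adgre1, Cd68 and Ccr2 were at least 4 times higher in Mo/KC than in any type but Hepa in each library, and Mrc1 was higher in EC. The other types held between 20 cells (EC, library 1) and 3820 cells (Eryb, library 1), with median UMIs per cell, both libraries pooled, from 6240 in EryP to 22846 in Ery. Kept cells had at least 504 UMIs in library 1 and at least 4387 in library 2, a depth that 9 of the 33 hepatoblasts of library 1 did not reach. The libraries shared 31 cell barcodes, 1 of them that of a hepatoblast and none that of a Mo/KC cell. Levels are given in CPM with exact Poisson 95% confidence intervals. Shares of cells or of UMIs carry Clopper-Pearson intervals of the same level, and neither kind covers more than the error of counting. UMIs are counted at the 3′ end and do not scale with transcript length, yet genes can differ in how well they are captured, so levels of different genes are compared on the CPM scale only.

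Albumin, alpha-fetoprotein, transthyretin, retinol-binding protein 4 and fetuin-A (Ahsg) are secreted carriers: albumin binds fatty acids and hormones, alpha-fetoprotein is its fetal relative, transthyretin carries thyroid hormone and the retinol-binding protein, and fetuin-A binds calcium phosphate. Apolipoproteins are the protein part of lipoprotein particles. ApoA-I and ApoA-II belong to high-density lipoprotein, ApoB is the structural protein of the particles that carry triglyceride and cholesterol out of the liver, ApoM binds sphingosine-1-phosphate, and ApoE is a ligand for lipoprotein receptors that macrophages and other cells also make.

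Hepatoblasts held 9 of the 10 genes almost alone, and Apoe was shared with Mo/KC, EC, G and HPSC. Apoe was also found in Mk and Ery, where its excess over free RNA depended on the setting, as described below. The 9 genes were spread over 8 chromosomes, with only Alb and Afp side by side. On the mouse genome GRCm38, as annotated in GENCODE vM21, Alb lies on chromosome 5 from 90460897 to 90476602 on the forward strand, and Afp follows 14134 bases downstream, from 90490737 to 90508907 on the same strand. Apoe lies on the reverse strand of chromosome 7 from 19696109 to 19699188, with the apolipoprotein gene Apoc1 3448 bases downstream of it. All 10 are annotated as protein-coding genes.

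To show the sequence in front of the pair of neighbouring hepatoblast genes beside that in front of the widely expressed Apoe, the 250 bases before the start of each gene were read from the RefSeq promoter table (build GRCm38.p6), which matched 9 of the 10 genes. They are written 5′ to 3′ on the strand of the gene, from chr5:90460620-90460869 for Alb, chr5:90490464-90490713 for Afp and chr7:19699189-19699438 for Apoe (the outermost of 3 listed starts). Capitals mark every match, on either strand, to GTTAATNAT, a spelling of the HNF1 recognition sequence, and to TGTTTGC, a spelling of the FOXA recognition sequence.
Alb: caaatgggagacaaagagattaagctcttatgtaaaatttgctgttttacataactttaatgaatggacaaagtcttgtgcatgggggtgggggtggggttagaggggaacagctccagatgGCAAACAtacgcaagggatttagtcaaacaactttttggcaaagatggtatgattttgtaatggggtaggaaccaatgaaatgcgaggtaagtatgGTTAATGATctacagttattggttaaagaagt
Afp: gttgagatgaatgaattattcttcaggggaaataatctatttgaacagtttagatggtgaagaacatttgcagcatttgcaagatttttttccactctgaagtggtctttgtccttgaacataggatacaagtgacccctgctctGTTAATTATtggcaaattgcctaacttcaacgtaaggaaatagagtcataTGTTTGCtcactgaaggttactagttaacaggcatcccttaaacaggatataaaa
Apoe: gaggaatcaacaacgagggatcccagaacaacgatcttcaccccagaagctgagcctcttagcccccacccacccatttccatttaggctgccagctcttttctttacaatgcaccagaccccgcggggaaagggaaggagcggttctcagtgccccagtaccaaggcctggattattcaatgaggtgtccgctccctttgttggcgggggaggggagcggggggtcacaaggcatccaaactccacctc
Both motifs were chosen after these sequences had been read. They do not overlap here. Of 32851 promoters in the table, 0.737% held GTTAATNAT and 4.30% held TGTTTGC in these 250 bases. Ttr had no entry and was not searched. Among the other 9 genes studied, Alb and Afp held the first, and 5 genes, Alb, Afp, Ahsg, Apoa1 and Apob, held the second. The Apoe window held neither. A match describes letters only and is not evidence of a binding site.

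Alb, the gene by which the authors named the hepatoblast cluster, reached 12595 CPM in Hepa of library 1 (95% confidence interval 12322 to 12873) and 8946 CPM in Hepa of library 2 (8741 to 9155). Its level there describes the cluster and is not an independent finding. Afp was higher than Alb in both libraries, with 19160 CPM (18822 to 19502) and 14446 CPM (14186 to 14711), which made it the most abundant of all genes in Hepa of library 1 and the second in library 2. The ratio of Alb to Afp UMIs was 0.657 (0.639 to 0.676) in library 1 and 0.619 (0.601 to 0.638) in library 2. UMIs of the fetal carrier thus outnumbered those of albumin at E12.5 in both libraries.

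Rbp4 was the next carrier, at 10601 CPM (10350 to 10856) and 6693 CPM (6516 to 6874) in libraries 1 and 2. Ttr, whose protein travels with that of Rbp4, was found at 5923 CPM (5736 to 6114) and 4655 CPM (4507 to 4806). Ahsg was the lowest of the carriers, with 1243 CPM (1158 to 1333) and 751 CPM (692 to 813). The 5 carriers thus spanned more than an order of magnitude within the same cells.

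Among the apolipoproteins, Apoa1 led with 8723 CPM (8496 to 8955) in the first library and had 5539 CPM (5378 to 5703) in the second. Apoa2 had 6813 CPM (6612 to 7018) and 5850 CPM (5684 to 6019), so that the order of these high-density lipoprotein genes differed between libraries. Apoe had 4219 CPM (4061 to 4381) and 3159 CPM (3038 to 3284), and Apom 3631 CPM (3485 to 3782) and 2603 CPM (2493 to 2716). Apob was the least abundant of the 10, with 241 CPM (204 to 282) and 184 CPM (156 to 216). Together, the 10 genes made up 7.31% (7.25 to 7.38%) of all Hepa UMIs in library 1 and 5.28% (5.23 to 5.33%) in library 2.

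Outside hepatoblasts, the 9 genes other than Apoe were found at 23.0 CPM or less in every cell type and library, with 19 of 144 values at 0 UMIs and none as high as in empty droplets. A gene was called held mainly by Hepa when its CPM there was at least 10 times that of every other cell type in each library, a type without a UMI being set to 3 counts. This was met by 9 of the 10 genes, all but Apoe, and by 8 when only cells with at least 1000 genes and under 10% mitochondrial UMIs were used, which ended the call of Apob. Over all 5769 genes with at least 20 UMIs in Hepa, 77 were called (1.33%). Since the genes were listed for what hepatoblasts are known to make, the difference between these shares describes the list. For Alb, the nearest type was Mk in library 1, where Hepa was 1212 times higher, and EC in library 2, where it was 507 times higher. For Apob, the least abundant gene, the nearest type was EC without a UMI in either library, and Hepa was at least 21.0 times higher in library 1 and at least 34.8 times higher in library 2. The plot of levels by cell type shows this contrast gene by gene.

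**Figure D1:**
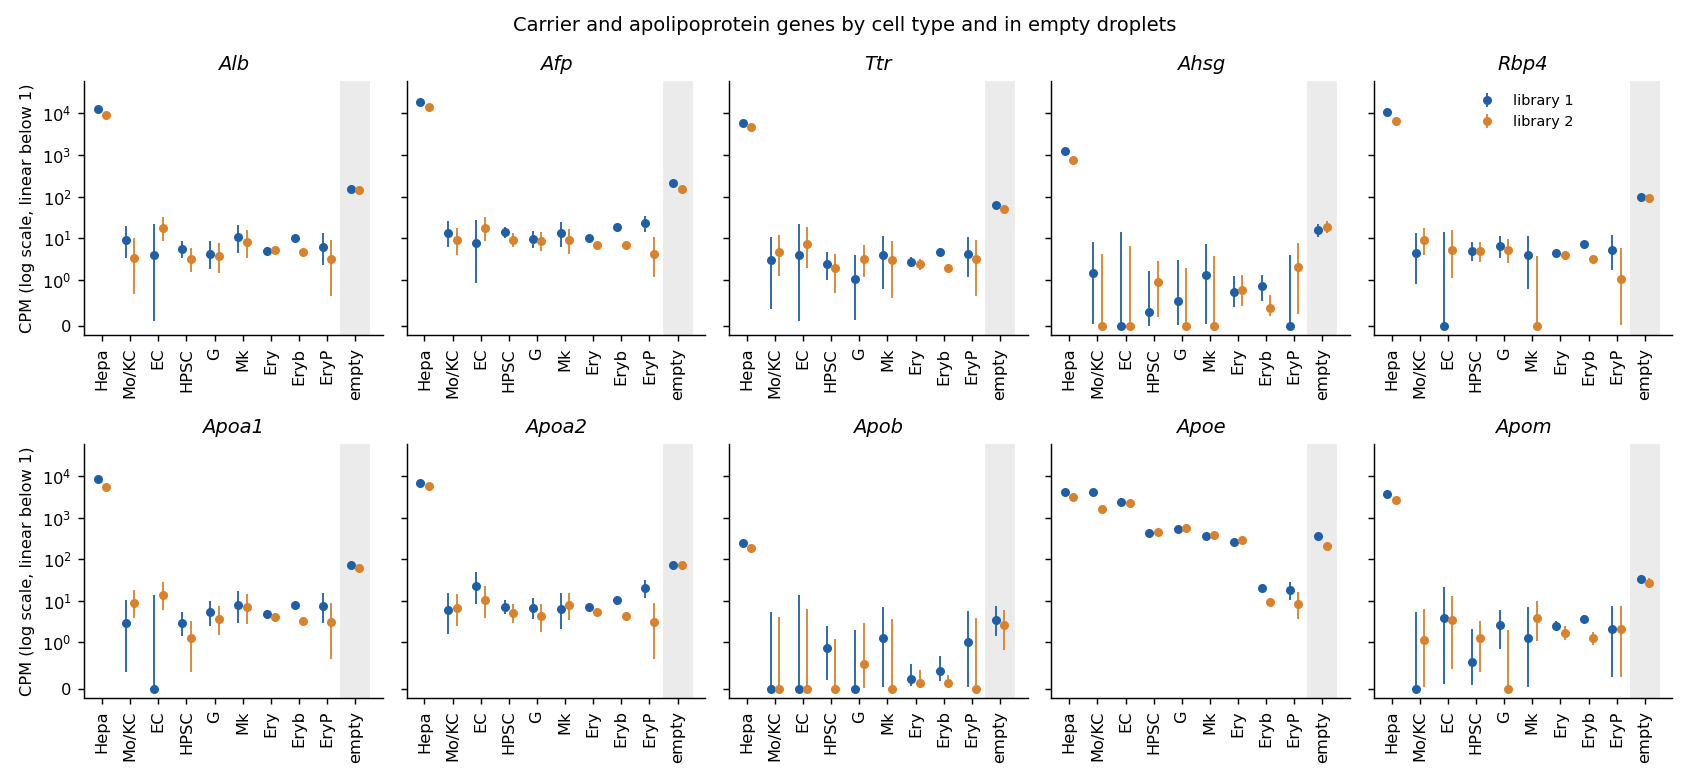
CPM of each of the 10 genes (y axis, logarithmic above 1 and linear below) in the 9 cell types and in empty droplets (x axis), for library 1 (blue) and library 2 (orange), with exact Poisson 95% confidence intervals as bars. In 9 panels Hepa stands alone above the other types, which all lie below the empty droplets. Apoe is highest in Hepa, Mo/KC and EC, lower in HPSC, G, Mk and Ery, and lowest in Eryb and EryP.

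RNA freed from broken cells enters every droplet, so the same genes were measured in barcodes with 1 to 50 UMIs that were not called as cells. These empty droplets contained Alb at 153 CPM (136 to 171) and 144 CPM (128 to 162), and Afp at 207 CPM (188 to 228) and 155 CPM (138 to 173). The 9 genes together made up 717 CPM and 623 CPM of the empty droplets, against 39.8 and 42.9 CPM in Mo/KC and 21.7 to 75.9 CPM in the other non-hepatoblast types. Apoe was at 371 CPM (344 to 399) and 204 CPM (184 to 225) in empty droplets. Relative to the 9 genes it was far more frequent there than in hepatoblasts, with 51.7 and 32.7 Apoe UMIs for every 100 UMIs of the 9 genes in empty droplets against 6.12 and 6.36 in Hepa. The Apoe in empty droplets thus did not keep the ratio that hepatoblasts have.

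For each non-erythroid cell type, the share of free RNA was bounded by its level of Hbb-bs, an adult beta-globin gene, divided by that of the empty droplets. For the 3 erythroid types it was assumed to be 20%. With these bounds, from 5.06% to 20%, 6 of 80 pairs of gene and non-hepatoblast cell type exceeded the UMIs that free RNA at the bound would give. Their lower Poisson limit was above that number in both libraries. All 6 were Apoe, in Mo/KC, EC, HPSC, G, Mk and Ery, the last taken as a whole. Of the 72 pairs without Apoe, 32 in library 1 and 33 in library 2 had an upper Poisson limit below the number at the bound. The bounds were thus high for many pairs, and a gene could be present without passing them. Shares taken instead from the 9 other genes ran from 5.09% to 9.61% in library 1 and from 3.49% to 12.2% in library 2. When uncalled barcodes with 51 to 200 UMIs stood for the empty droplets, Apoe in Mk and in Ery no longer passed. In library 2 alone, Alb, Afp, Apoa1 and Apoa2 also passed in EC, with 10, 10, 8 and 6 UMIs against 4.13, 4.44, 1.79 and 2.05 given by free RNA. The 10 Alb UMIs came from 3 of the 26 EC. In these EC of library 2, the 7 hepatoblast markers summed to 125 CPM, against 7.63 CPM in library 1. Of the 125 CPM, Dlk1 was 118 CPM, and Hnf4a, Krt18, Cdh1 and Fgb were at 0. The part of hepatoblast RNA in the EC result was not tested. With a free RNA share taken from the 9 other genes, Apoa1 and Apoa2 also passed in Ery and Eryb. In all cells but Hepa, Apoa2 made up 17.8% and 17.2% of the UMIs of the 9 genes, against 10.0% and 11.5% in empty droplets. The cause of this difference was not tested.

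Mo/KC is the cluster of interest for carrier transcripts outside hepatoblasts, because macrophages make and take up several of these proteins. The 114 Mo/KC cells contained 9 Alb, 17 Afp, 6 Ttr, 1 Ahsg, 11 Rbp4, 10 Apoa1, 10 Apoa2, 0 Apob and 1 Apom UMIs. For Apob, which had no UMI, 3 counts would correspond to 4.42 CPM in library 1 and 3.39 CPM in library 2. None of the 9 exceeded free RNA in either library. For instance, the 6 and 3 Alb UMIs faced 5.53 and 11.6 expected, and the 9 and 8 Afp UMIs faced 7.49 and 12.49. The hepatoblast markers summed to 5.89 CPM in Mo/KC of library 1 and 23.7 CPM of library 2, against 8014 and 5213 CPM in Hepa, and 2 of the 7, Hnf4a and Cdh1, had no UMI there.

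Apoe was the only one of the 10 with more than a trace in Mo/KC. Its level was 4115 CPM (3964 to 4271) in the first library and 1592 CPM (1510 to 1678) in the second, where free RNA would have given 13.4 of 2793 and 16.5 of 1410 UMIs. Mo/KC reached the Hepa level in library 1, with a ratio of Hepa to Mo/KC of 1.03 (0.972 to 1.08), but not in library 2, with a ratio of 1.98 (1.86 to 2.12). EC came next, with 2320 CPM (2139 to 2512) and 2191 CPM (2071 to 2317). Mo/KC lay above EC in library 1 (ratio 1.77, 1.62 to 1.94) and below it in library 2 (0.727, 0.673 to 0.785). The order of these pooled levels thus differed between libraries. Per cell, the median was 2365 and 2099 CPM in EC, 811 and 747 CPM in Mo/KC and 4182 and 2189 CPM in Hepa. Mo/KC was also the only type of the 7 compared whose Apoe level differed this much between libraries, with a ratio of library 1 to library 2 of 2.58 (2.42 to 2.76), against 1.34 (1.26 to 1.41) in Hepa, 1.06 (0.959 to 1.17) in EC and 0.913 to 0.984 in HPSC, G, Mk and Ery.

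G had 545 CPM (512 to 579) and 554 CPM (521 to 588) of Apoe, HPSC 429 CPM (407 to 451) and 447 CPM (424 to 471), and Mk 364 CPM (322 to 409) and 375 CPM (338 to 414). The median Mk cell had 0 and 237 CPM. In Mk, 7 markers of stellate and mesenchymal cells summed to 173 and 192 CPM, and the part of such cells in its Apoe was not tested. Ery had 264 CPM (257 to 272) and 289 CPM (281 to 297). Eryb fell to 19.8 CPM (18.1 to 21.7) and 9.497 CPM (8.51 to 10.6), and EryP to 17.7 CPM (10.3 to 28.4) and 8.29 CPM (3.58 to 16.3), where Apoe was below the UMIs that free RNA at an assumed 20% would give. With a share taken from the 9 other genes, Apoe stayed below in library 1 (481 against 802 UMIs in Eryb, 17 against 34.1 in EryP). In library 2 it did not (337 against 302 UMIs in Eryb, 8 against 6.86 in EryP). The intervals of HPSC and G did not overlap within a library, and those of Eryb and EryP did, but they leave out the spread between cells. The median cell had 141 and 149 CPM in HPSC and 152 and 286 CPM in G. Of all Apoe UMIs in kept cells, 36.5% came from Ery and 18.8% from Hepa, against 95.1% of the UMIs of the other 9 genes that came from Hepa.

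A gene was called held by Mo/KC when its level there was at least 4 times that of every type other than Hepa in each library. Of all 6242 genes with at least 20 UMIs in Mo/KC, 59 were called (0.945%). Only Apoe among the 10 had enough UMIs to be read, and it was not called. Its level in Mo/KC was 1.77 and 0.727 times that in EC. In library 2 it was also only 2.88 times that in G and 3.56 times that in HPSC. Markers of macrophages in EC summed to 282 CPM in library 1 and 143 CPM in library 2, against 13961 and 10603 CPM in Mo/KC, and most of that in EC was Mrc1 (172 and 127 CPM), which sinusoidal endothelium also uses. The complement genes C1qa, C1qb and C1qc, which mark macrophages, were between 0 and 1.76 CPM in EC of library 2 and between 19.1 and 45.8 CPM in library 1. Every EC contained Apoe (20 of 20, with an interval from 83.2%, and 26 of 26, from 86.8%), from 203 to 6583 CPM in library 1 and from 508 to 4814 CPM in library 2. The part of macrophage RNA in the Apoe of EC was not tested.

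Within Mo/KC, Apoe followed the C1q genes. Cells with at least 2 UMIs of C1qa, C1qb and C1qc, called below the Mo/KC cells with C1q UMIs, numbered 26 in library 1 and 21 in library 2. They contained Apoe at 11494 CPM (11050 to 11951) and 3573 CPM (3355 to 3802). The 30 and 37 other Mo/KC cells had 582 CPM (514 to 656) and 684 CPM (620 to 753). The cells with C1q UMIs were thus 19.8 times (17.4 to 22.5) and 5.23 times (4.66 to 5.87) higher. Lyz2, shared by monocytes and granulocytes, ran the other way, with 1065 and 2654 CPM in the cells with C1q UMIs and 14325 and 10574 CPM in the rest. Ly6c2, a monocyte gene, was at 0 and 3.59 CPM against 516 and 463 CPM, and Mpo, a granule gene of early granulocytes and monocytes, at 13.7 and 14.4 CPM against 991 and 797 CPM. Ccr2, of the same marker list as Ly6c2, differed far less, with 81.9 and 147 CPM against 166 and 160 CPM. Adgre1 (F4/80) stood at 314 and 180 CPM in the cells with C1q UMIs and 95.9 and 51.1 CPM in the rest. Cd5l, a gene of tissue macrophages, was found in Mo/KC at 32.4 and 85.8 CPM, all of it in the cells with C1q UMIs. Since the clusters were made from the expression of the same cells, the split is a description.

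Among single Mo/KC cells, Apoe ranged from 0 to 36295 CPM with a median of 811 CPM in library 1, and from 0 to 21233 CPM with a median of 747 CPM in library 2. A few cells set the level. With cells ranked by Apoe CPM, the first 6 of the 56 cells of library 1 held at least 50% of its Apoe UMIs. The first 7 of the 58 cells did so in library 2. Apoe and C1q levels per cell correlated with a Pearson r of 0.504 (Spearman 0.672) over the 56 cells and 0.660 (0.622) over the 58 cells, which share library and depth. With each cell thinned to 3600 UMIs (the mean over all possible draws), Apoe was found in 70.0% of the 46 deep enough Mo/KC cells of library 1 and 72.7% of the 58 of library 2, against 7.02% and 3.50% in Eryb, which served as background. The unthinned shares were 85.7% (73.8 to 93.6%) and 82.8% (70.6 to 91.4%) in Mo/KC and 11.6% (10.6 to 12.7%) and 8.44% (7.56 to 9.40%) in Eryb, with median depths of 12888 and 15242 UMIs in Mo/KC and 5613 and 8982 UMIs in Eryb. In the 92 Mo/KC cells without a UMI of Alb or Afp, Apoe was at 2862 CPM pooled, and in the 22 cells with one at 2156 CPM. The median depth was 12664 UMIs in the former cells and 17848 UMIs in the latter, and the part of hepatoblast RNA was not tested.

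The erythroid lineage had a sharp border. The authors' 6 erythroid subclusters split Ery into Ery 1 and Ery 2, and Eryb into Ery 3 to Ery 6. Apoe was at 492 CPM (478 to 506) and 541 CPM (526 to 556) in Ery 1, above HPSC, and at 19.2 CPM (16.4 to 22.2) and 21.0 CPM (18.1 to 24.3) in Ery 2. This is a ratio of 25.7 (22.1 to 30.02) in library 1 and of 25.7 (22.2 to 29.96) in library 2. From Ery 3 to Ery 6 the level stayed between 8.19 and 25.1 CPM. Empty droplets had 371 and 204 CPM of Apoe, far above Ery 2, and Ery 2 was not set against free RNA on its own. Thinned to 3600 UMIs, 48.7% and 51.5% of Ery 1 cells contained Apoe, against 5.80% and 9.03% of Ery 2 cells. Without the cells of Ery 1 that had a C1q UMI, 16 and 6 in number, the level was 494 and 529 CPM. One Ery 1 cell of library 2 reached 10338 CPM, and the median Ery 1 cell had 139 and 175 CPM. The plot of Apoe across groups shows both the step in Mo/KC and the step in the erythroid subclusters.

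**Figure D2:**
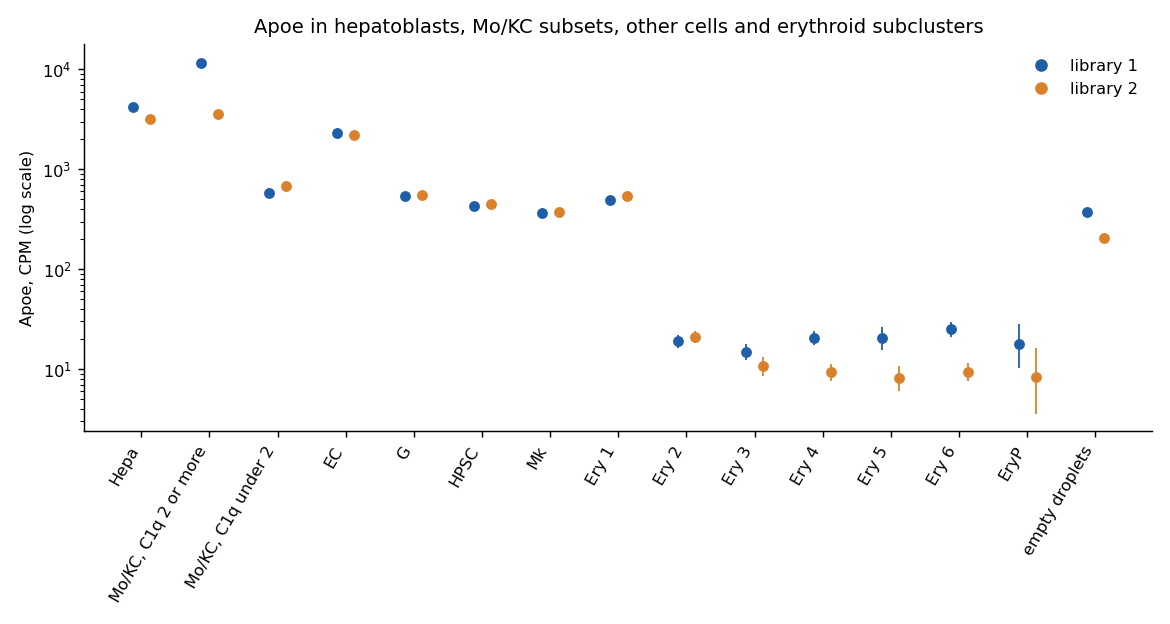
Apoe level (CPM, logarithmic y axis) in hepatoblasts, Mo/KC cells with 2 or more and with under 2 C1q UMIs, EC, G, HPSC, Mk, the 6 erythroid subclusters, EryP and empty droplets (x axis), for library 1 (blue) and library 2 (orange), with exact Poisson 95% confidence intervals that are smaller than most points. Mo/KC cells with 2 or more C1q UMIs lie at 11494 and 3573 CPM and those with under 2 at 582 and 684 CPM. Ery 1 lies at 492 and 541 CPM against 19.2 and 21.0 CPM in Ery 2.

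The libraries differed in how much of the 10 genes hepatoblasts contained. All 10 were lower in library 2, with library 1 to library 2 ratios from 1.16 (1.12 to 1.21) for Apoa2 to 1.66 (1.49 to 1.84) for Ahsg. Single hepatoblasts varied more than the libraries did: the 10 genes took from 0.220% to 20.01% of a cell's UMIs in library 1 (median 8.12%) and from 0.393% to 16.1% in library 2 (median 3.43%). Alb ranged from 0 to 35588 CPM per cell in library 1 and from 441 to 46127 CPM in library 2, and the lowest Afp values were 702 and 1024 CPM. At a median of 201 and 148 Alb UMIs per cell, the variance of Alb between cells was 76.2 and 164 times that of Poisson counting. Afp was found in every hepatoblast, Alb in 32 of 33 and 31 of 31, and Apob in 23 of 33 and 21 of 31, at a median of 3 and 2 UMIs per cell.

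Most of the cells lowest in the 10 genes were high in globin RNA. In 2 of 33 hepatoblasts of library 1 and 12 of 31 of library 2, Hbb-bs took 2% or more of the UMIs, a limit set after the values had been seen. In these cells the 10 genes made up 0.2503% (0.203 to 0.306%) and 1.02% (0.969 to 1.07%) of the UMIs, with 1.76% as the highest single cell of library 2. The 31 and 19 other hepatoblasts had 7.76% (7.69 to 7.83%) and 6.29% (6.23 to 6.35%). The other hepatoblast markers moved alike: Dlk1 was at 105 and 600 CPM against 4159 and 3173 CPM, and Serpina1a at 26.3 and 181 CPM against 2145 and 1371 CPM. Alas2, the erythroid enzyme of heme synthesis, was at 580 and 284 CPM against 51.5 and 35.1 CPM. The part of erythroid RNA in the difference between libraries was not tested. Without these cells the ratios of library 1 to library 2 ran from 1.05 (1.01 to 1.10) for Apoa2 to 1.46 (1.31 to 1.63) for Ahsg, with 1.15 (0.915 to 1.46) for Apob, and these intervals leave out the spread between cells.

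**Figure D3:**
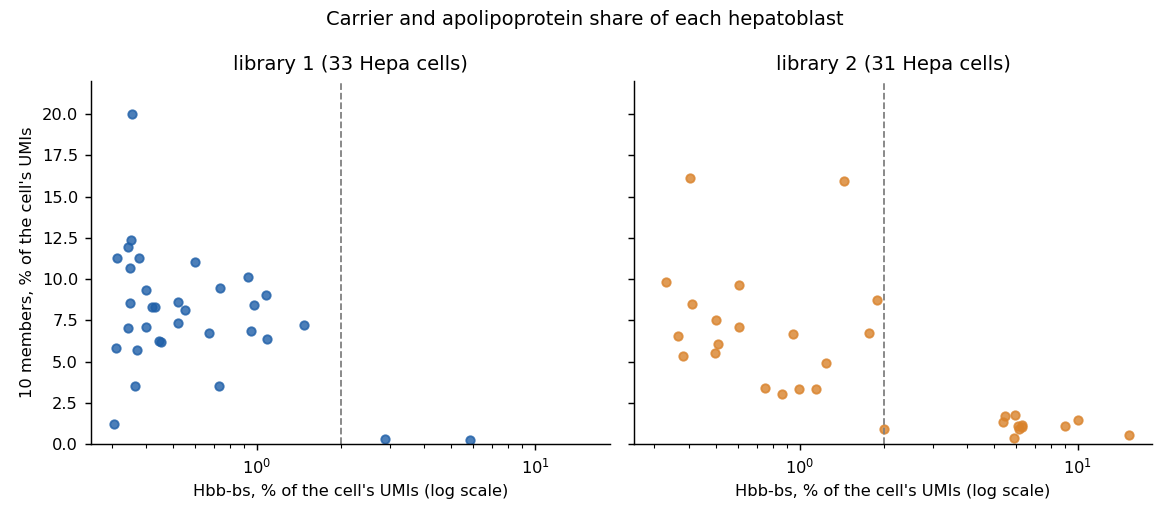
Share of each hepatoblast's UMIs taken by the 10 genes (y axis, percent) against the share taken by Hbb-bs (x axis, percent, logarithmic), 1 point per cell, library 1 left and library 2 right, with a dashed line at 2% Hbb-bs. On or to the right of the line lie 2 cells of library 1 and 12 of library 2, none above 1.76% for the 10 genes.

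Within each library the genes rose and fell together from cell to cell. All 45 pairs correlated positively in both libraries, with a median Pearson r among the 9 genes of 0.705 over 33 cells and 0.858 over 31 cells, and of Apoe with the others of 0.667 and 0.813. Alb and Afp had an r of 0.813 and 0.907. The points share library, depth and the globin-rich cells. In the 31 and 19 cells with Hbb-bs under 2%, the medians were 0.632 and 0.761 among the 9 genes and 0.580 and 0.629 for Apoe, and 1 of the 9 Apoe pairs of library 2 was negative. Across the 18 profiles of 9 cell types in 2 libraries, by contrast, log2(CPM + 1) of the 9 genes correlated with an r of at least 0.926, and Apoe with each of them at 0.370 to 0.440. The r among the 9 genes largely restates that each was held mainly by Hepa.

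Among 4601 other genes with at least 50 CPM in a cell type, the 5 most like Alb over these 18 profiles were Serpinf2 (r = 0.996), Gjb1 (0.990), Gldc (0.989), Agt (0.986) and Prodh2 (0.986). Serpinf2 encodes a plasmin inhibitor of plasma, and Agt the precursor of angiotensin. Their pooled Hepa levels ran from 71.0 CPM for Agt to 1079 CPM for Serpinf2, below that of Alb. Among the 5 most like Apoe were Atraid (0.977), Rrbp1 (0.962), Ddrgk1 (0.962) and Kdelr1 (0.960). These 4 were found in all 9 cell types, and their Mo/KC levels, from 74.2 to 135 CPM pooled, lay far below the 2687 CPM of Apoe.

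Next, other genes of the same pathway were examined, 48 genes in 5 groups that are found once in the tables, while Apoc2 is carried by 2 gene identifiers and was left out. Of these 48, 29 had enough UMIs to be read in Hepa and 8 were called for it, and 15 could be read in Mo/KC and 3 were called for it, beside 1.33% and 0.945% of all genes. In library 1, a gene without a UMI in EC could be called only from 114 CPM in Hepa, because EC held few UMIs and 3 counts stand for none.

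Of the 9 other apolipoproteins, 2 were called for Hepa: Apoh, which binds phospholipids, with 267 and 122 CPM, and Apof, with 184 and 121 CPM. Apoc1, the neighbour of Apoe, was at 540 and 456 CPM in Hepa, 112 and 98.3 CPM in Mo/KC and 53.9 and 60.1 CPM in G, but at 11.4 and 7.06 CPM in EC, where Apoe was high. Apoc4, in the same cluster, was at 48.4 and 63.0 CPM in Hepa and was not found in Mo/KC. Apoc3, which lies 2466 bases from Apoa1 on chromosome 9 and is reported for that reason, was at 15.6 and 4.94 CPM in Hepa. Clu was highest in Mk, with 531 and 265 CPM, against 78.1 and 42.0 CPM in Hepa. In Mk, the 7 markers of stellate and mesenchymal cells summed to 173 and 192 CPM against 0 in Mo/KC, Dlk1 was at 169 and 263 CPM, and their part in the Clu level was not tested.

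Of the 11 other plasma carriers, 4 were called for Hepa: the iron carrier gene Trf (2599 and 3422 CPM), the corticosteroid-binding globulin gene Serpina6 (3994 and 2814 CPM), Ambp (2593 and 1742 CPM) and the heme-binding protein gene Hpx (434 and 299 CPM). Of these 4, only Trf was higher in library 2. It was also present in Mo/KC at 91.4 and 109.6 CPM, mostly in the cells with C1q UMIs (228 and 259 CPM, against 26.1 and 41.2 CPM in the rest). Hp, the hemoglobin-binding carrier of the adult liver, was nearly absent from Hepa (6.25 and 0 CPM) and was found in Mo/KC at 581 and 550 CPM and in G at 1202 and 964 CPM. Within Mo/KC it lay in the cells with few C1q UMIs (852 and 792 CPM, against 13.7 and 21.5 CPM). Gc, the vitamin D carrier, had 112 and 76.5 CPM in Hepa and no UMI in Mo/KC. Cp, Fetub and Orm1 had no UMI in Hepa.

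Of the 9 genes of lipoprotein assembly and remodelling, 1 was called for Hepa, and Apobec1, which edits Apob transcripts, was called for Mo/KC (48.6 and 37.3 CPM, against 1.56 and 0 CPM in Hepa). Apob and its editing gene thus had their highest levels in different cell types. Mttp, which loads lipid onto ApoB, had 89.0 and 42.0 CPM in Hepa, Lcat 93.7 and 71.6 CPM and Lipc 70.3 and 45.7 CPM. Lpl, the lipase that macrophages and muscle use, was at 237 and 168 CPM in Hepa and 139 and 120 CPM in Mo/KC.

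Of the 9 receptors and transporters, none was called for Hepa and Lrp1, an ApoE receptor, was called for Mo/KC (61.9 and 37.3 CPM), a call that leaves out Hepa, where it was at 40.6 and 21.0 CPM. Scarb1, the receptor for high-density lipoprotein, was found in all types but EryP, where it was at 1.04 and 0 CPM, with 54.7 and 42.0 CPM in Hepa, 115 and 73.4 CPM in Mo/KC and 59.4 and 42.6 CPM in Ery. Abca1, the cholesterol exporter that loads ApoA-I, was at 78.1 and 37.0 CPM in Hepa. Of the 10 regulators, Hnf4a, a hepatocyte factor, was called for Hepa (79.7 and 61.7 CPM), in library 1 only because EC had 1 UMI (3.82 CPM) and not 0, and Nr1h3, the sterol-sensing receptor LXR-alpha, for Mo/KC (81.0 and 57.6 CPM). Nr1h3 lay in the cells with C1q UMIs (246 and 172 CPM, against 2.18 and 4.94 CPM), as Apoe did. The plot of pathway genes sets the levels of Hepa and Mo/KC against each other.

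**Figure D4:**
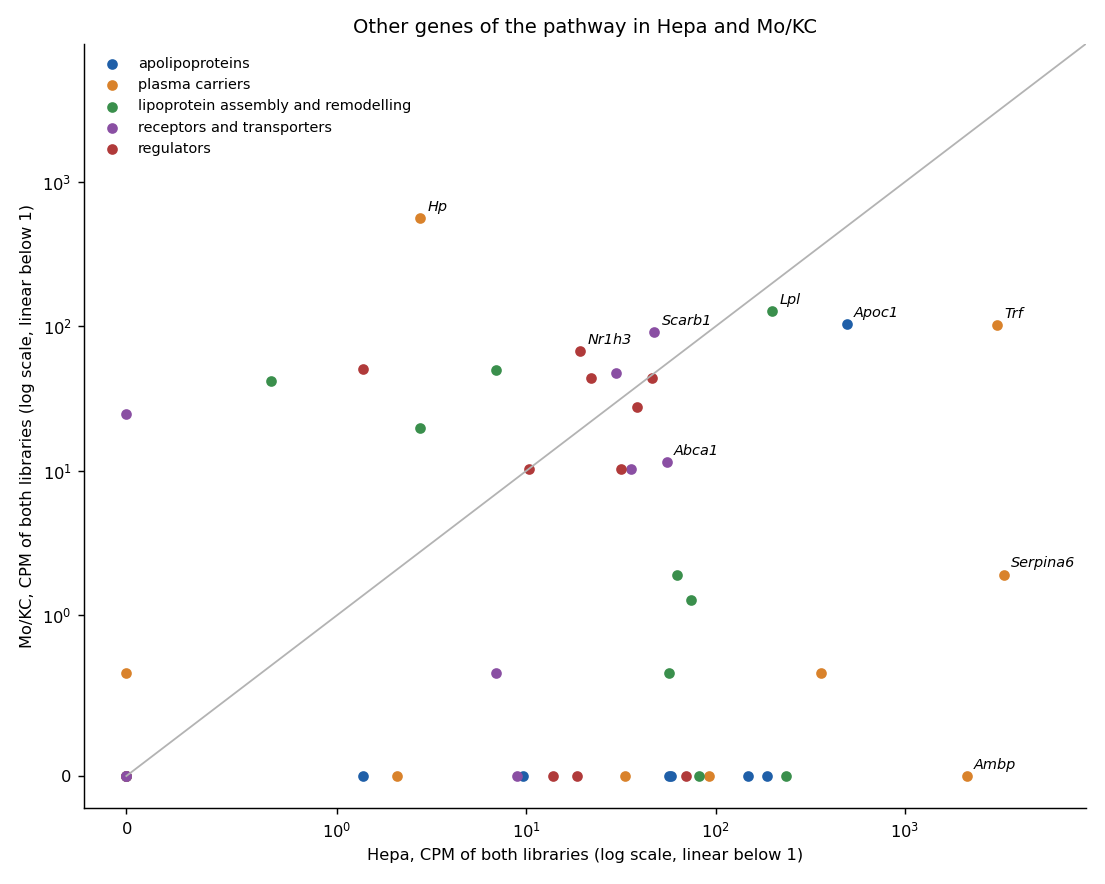
Pooled CPM of 48 other genes of the pathway in Hepa (x axis) and Mo/KC (y axis), both logarithmic above 1 and linear below, coloured by group, with a grey line of equal level. Trf, Serpina6 and Ambp lie far to the right, Hp far above the line, and Lpl, Apoc1, Scarb1 and Nr1h3 between.

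Barcodes that the authors had not called as cells were examined for the same 10 genes. The genes made up 1% or more of the UMIs in 49 of the 3461 uncalled barcodes of library 2 with at least 1000 UMIs, and in 0 of 169 of library 1, which allows a share of up to 2.16%. Those 49 barcodes had between 1036 and 3986 UMIs, a depth at which library 1 contributed hepatoblasts and library 2 did not.

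**Figure D5:**
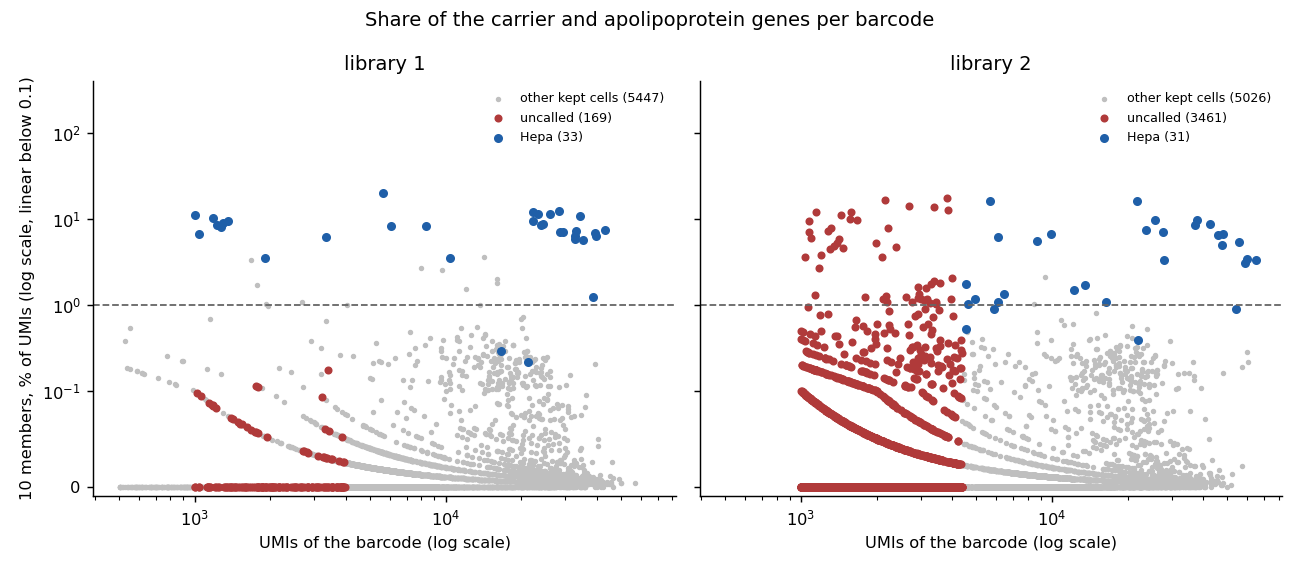
Share of UMIs from the 10 genes (y axis, percent, logarithmic above 0.1 and linear below) against the UMIs of each barcode (x axis, logarithmic), library 1 left and library 2 right, for hepatoblasts (blue), other kept cells (grey) and uncalled barcodes (red), with a dashed line at 1%. In library 2, 49 red points lie on or above the line, all to the left of the kept cells.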

How the data were processed

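Single cell RNA was measured in 2 libraries of 1 group. Per the labels and methods, the authors demultiplexed with bcl2fastq 2, aligned and counted with Cell Ranger 2.1.1 against mm10 (GRCm38), kept cells with at least 200 genes and clustered with Seurat 3.2.0, while a file header names another Cell Ranger version. The deposited values are raw UMI counts, filtered and unfiltered, and a table of cell types. Cells of the table were used, doublets having been removed only by sorting. UMIs were summed per cell type and library with Python 3.11.15, numpy 2.4.6, scipy 1.17.1 and pandas 2.3.3, and plotted with matplotlib 3.10.9. A gene entered the calls with at least 20 UMIs. The folds were 10 for Hepa and 4 for Mo/KC. Empty droplets were uncalled barcodes with 1 to 50 UMIs. Thinning went to 3600 UMIs, the depth that 90% of EryP exceed. The counting of calls was tested on simulated data. The members, gene lists and markers were chosen with earlier results of these data known. Named genes were all members, listed genes with at least 50 CPM in Hepa or Mo/KC or in a count of 5 or fewer, and the 5 most alike to Alb and to Apoe. Apoc2 has 2 gene identifiers and is not reported, and a few other genes are not reported here. The alternatives were leaving out each library, other folds, filters on genes and mitochondrial UMIs, other empty droplets, other free RNA shares and other thinning depths.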

Additional observations from a re-analysis of the deposited data

Results flagged for a closer look

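In library 2, 49 of 3461 uncalled barcodes with at least 1000 UMIs (1.42%, 1.05 to 1.87%) had 1% or more of their UMIs from the 10 genes, and this was singled out because the comparisons of the report use called cells only. The share had a median of 3.62% and reached 17.5%, against 0.176% at most in the 169 such barcodes of library 1. Afp was at 11618 CPM and Alb at 11431 CPM in the 49 barcodes, with Dlk1 at 2121 CPM, Serpina1a at 1278 CPM and no UMI of Hnf4a. Apoe was at 6.40 UMIs per 100 UMIs of the other 9 genes, against 6.36 in hepatoblasts of the same library, and Alb at 0.984 per Afp UMI, against 0.619. In empty droplets of library 2 these values were 32.7 and 0.931. The barcodes were picked by the share of these same genes, so their make-up is a description. In 42 of the 49, Hbb-bs took 2% or more of the UMIs, and the median share of the 10 genes was 2.40% there and 7.79% in the other 7. Among kept cells other than hepatoblasts, 10 of 5447 in library 1 (all Mo/KC) and 2 of 5026 in library 2 (1 Mo/KC and 1 Ery) reached 1%, and 0 reached it by the 9 genes without Apoe.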

How the results depend on the processing

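Over 16 results and 79 alternatives, 72 values stayed within the spread between the libraries or within 1.5 times the count, and 7 did not. For levels and shares, leaving out a library gives the other library's own value, an edge of that spread. Those alternatives are among the 72, could not fall outside it and say nothing about stability. Leaving out each library gave pooled Hepa levels of 8946 to 12595 CPM for Alb and 14446 to 19160 CPM for Afp, a share of the 10 genes of 5.28 to 7.31%, 9 genes held mainly by Hepa and 0 by Mo/KC each time, and Apoe in Mo/KC at 1592 to 4115 CPM. The pairs above free RNA numbered 6, and between 6 and 10 without 1 library (10 without library 1), 10 with a free RNA share of 5% and 10 with a share taken from the 9 other genes, the latter chosen after seeing the data. In each case the 6 Apoe pairs were all included, and the added 4 were pairs of other genes. Without library 1 these were Alb, Afp, Apoa1 and Apoa2 in EC. At a share of 5% they were Apoa2 in EC, Ery and Eryb and Apoa1 in Ery. With the share from the 9 other genes they were Apoa1 and Apoa2 in Ery and Eryb. With uncalled barcodes of 51 to 200 UMIs as empty droplets there were 7: Apoe in Mo/KC, EC, HPSC and G, Apoa2 in EC and HPSC, and Afp in HPSC, with Apoe in Mk and Ery lost. The filter on genes and mitochondrial UMIs left 8 genes held mainly by Hepa, without Apob. Over all genes, the 77 called for Hepa became 40 with that filter, 44 with globin and mitochondrial UMIs left out of the total, 149 at 5 times and 39 at 20 times, and the 59 called for Mo/KC became 31, 38, 161 at 2 times and 14 at 10 times. Without hepatoblasts with Hbb-bs at 2% or more, also chosen after seeing the data, Apoa2 was at 7043 CPM in Hepa, against 6275 CPM. The share of Mo/KC cells with an Apoe UMI, 71.5% when thinned, was 84.2% with no thinning, 76.3% at 7200 UMIs and 59.8% when at least 2 UMIs were asked for. The cause of these shifts was not tested, apart from the depth and UMI limits that define the last 3. No paired analysis was possible because the 2 libraries belong to 1 group. Depth limits Apob most, at a median of 2 to 3 UMIs per hepatoblast.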
